A study of Mus musculus with 15 samples.

Results

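In mouse lung cancer cells with knockdown of Siva, 10 genes of the NRF2 antioxidant programme were followed. They were chosen by name: every array probe whose gene name was Nfe2l2, Nqo1, Hmox1, Gclc, Gclm, Txnrd1, Srxn1, Slc7a11, G6pdx or Abcc4. Glutathione transferase genes were left aside. All 10 genes were found, on 11 probes, among 22908 genes tested, and all 11 probes were well above background on 15 of 15 arrays.

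NRF2, the protein made from Nfe2l2, is a transcription factor that KEAP1 marks for degradation in resting cells. Oxidants and electrophiles release it, and it then pairs with small MAF proteins on antioxidant response elements in the promoters of detoxifying and redox genes. The pathway is widely studied in lung cancer, where mutations of KEAP1 or NFE2L2 are frequent in patients.

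The study used LSZ2 and LSZ4, lines labelled as non-small cell lung cancer, to ask what Siva, a target gene of p53, does for tumour growth. Cells carried the Siva hairpin shSiva2 or shSiva1 in the vector pLKO TRC2.0, and the controls carried shGFP in pLKO.1 or shLacZ in LL37, hairpins against genes that mouse cells lack. Puromycin selection lasted 3 days, which shLacZ cells did not undergo, and RNA was taken 2 days after plating. Each line and hairpin had 2 arrays apart from LSZ2 with shGFP, which had 1, giving 8 shSiva and 7 control arrays. Whether replicates were separate cultures is not in the labels, and every p-value below is set by the spread of these samples alone, which may be technical. Slide is not in the labels. If the names of the scanner files are read as slides, the 8 shSiva arrays were on 1 slide and the 7 control arrays on another. On that reading slide, vector and Siva hairpin cannot be told apart in any comparison with controls, and vector and hairpin cannot on any reading. Both Siva hairpins shared vector and selection and, on the same reading, slide.

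The Siva1 transcript fell by 2.10 on the log2 scale with shSiva2 and by 2.94 with shSiva1 (SE 0.26 each). Of 6 epithelial markers, 4 were well above background on all 15 arrays. Of 9 lung markers, Foxa2 and Aqp5 were so on all 15, Sftpb on 11, Ager on 9, Scgb1a1 on 8 and Napsa on 1. Nkx2-1, Sftpc and Sftpa1 were so on none. Markers of other cell types were partly present: Pecam1, Kdr, Csf1r, Itgam, Cd3e and Col1a2 were well above background on all 15 arrays, and Cdh5, Tie1, Emcn, Pdgfra, Pdgfrb, Dcn and Lum on none. One array stood apart, LSZ4 shLacZ replicate 1. Its centred profile correlated with that of its replicate at 0.10, against 0.54 to 0.88 for the other 6 pairs, and its 75th percentile signal was 895 against 578. The 75th percentile signal of all arrays, called brightness here, ran from 428 to 1029, with 791 to 1029 in LSZ2 and 428 to 964 in LSZ4.

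The promoters of the genes were searched for the core antioxidant response element, TGACNNNGC, on both strands, in windows from 250 bases before to 50 bases after each start site (RefSeq, GRCm38.p6). The element was present for 6 of the 8 genes that had a window, Nfe2l2, Gclm, Txnrd1, Srxn1, G6pdx and Abcc4, and absent from the windows of Nqo1 and Slc7a11. It was present in 12.4% of all 32851 windows and for 14% of 27025 genes. Counted by window, 7 of the members' 11 windows held it, 63.6%. Among 29 further NRF2 targets with a window, from a list described below, 7 had the element, 24.1%. Hmox1 and Gclc, the other members, had no window. The members' 7 matches are shown because they are where the element occurs in the members' windows, and they differ in strand, position and free bases. For Txnrd1 the match was at the second of 3 start sites. Each has 10 bases on either side, read in the direction of the gene, with the element or its reverse complement in capitals. None overlapped the AP-1 element TGACTCA or TGAGTCA.
Nfe2l2 (chr2:75704885-75704913, minus strand): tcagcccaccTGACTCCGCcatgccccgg
Gclm (chr3:122245413-122245441, plus strand): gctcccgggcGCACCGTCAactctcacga
Txnrd1 (chr10:82859104-82859132, plus strand): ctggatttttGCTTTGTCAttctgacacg
Srxn1 (chr2:152105542-152105570, plus strand): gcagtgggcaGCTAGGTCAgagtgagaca
G6pdx (chrX:74428919-74428947, minus strand): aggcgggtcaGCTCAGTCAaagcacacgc
Abcc4, first start site (chr14:118706226-118706254, minus strand): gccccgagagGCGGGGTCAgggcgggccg
Abcc4, second start site (chr14:118676936-118676964, minus strand): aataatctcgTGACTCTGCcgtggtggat

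The probes that carried the main hairpin result are shown by the first 30 of their 60 bases, at their positions on mm9 as the array files give them.
Nqo1 (chr8:109912440-109912499, minus strand): taggtcatttatgcaatattcgccattttc
Gclc (chr9:77641296-77641355, plus strand): agtgaactggcttgtacattttgaattctt

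Over both lines and both Siva hairpins, 2 of the 10 genes changed. Abcc4, an efflux pump that exports conjugated metabolites and cyclic nucleotides, was higher with shSiva. G6pdx, the enzyme that opens the pentose phosphate pathway and makes NADPH, was lower. Neither the transcription factor gene Nfe2l2 nor any of the other 7 targets passed the test. Of all genes tested, 9.97% passed, 4.29% higher and 5.68% lower, and higher genes were 43.0% of these calls. Over the alternatives this split ran from 29.3% without LSZ4 shLacZ replicate 1 to 68.8% with 8 group means, with 56.0% under normexp background correction and 62.4% with each line and hairpin group as a random block. Without LSZ4 shLacZ replicate 1, 16.5% of all genes passed.

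Abcc4 ran from 3.53 to 4.40 on 8 shSiva arrays, with a median of 3.97, and from 2.96 to 3.80 on 7 control arrays, with a median of 3.45 (log2 signal less the array's 75th percentile). The ranges of the arms overlapped, but within each line every shSiva array lay above every control array. The fitted change was 0.56 (SE 0.12, adjusted p = 0.00901). It was 0.60 within LSZ2 and 0.53 within LSZ4.

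G6pdx ran from 4.56 to 5.97 on shSiva arrays, with a median of 5.13, and from 5.42 to 6.57 on control arrays, with a median of 5.69. In LSZ2 the arms did not overlap, and in LSZ4 the highest shSiva array lay above the lowest control array, LSZ4 shLacZ replicate 1. The fitted change of G6pdx was -0.76 (SE 0.21, adjusted p = 0.0289). Within LSZ2 the change was -0.52 and within LSZ4 -0.96.

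The other 8 genes read -0.76 (Nqo1), -0.54 (Slc7a11), -0.34 (Nfe2l2), -0.18 (Gclm), 0.05 (Srxn1), 0.10 (Hmox1), 0.14 (Txnrd1) and 0.20 (Gclc), with adjusted p between 0.123 and 0.900. Txnrd1 passed with quantile scaling (0.31, adjusted p = 0.0117), and Nfe2l2 with brightness as a term (-0.35, adjusted p = 0.0295), a setting chosen after seeing the data under which 29.2% of all genes passed. The median change of the 10 genes was -0.06, beside -0.12 over all genes. Abcc4 lost its call with normexp background correction (0.45, adjusted p = 0.150) and with 8 group means (0.59, adjusted p = 0.148), and over all alternatives its adjusted p ran from 0.000257 to 0.150. G6pdx lost its call with no filter, with 8 group means, with each line and hairpin group as a random block, and without LSZ4 shGFP replicate 1 or 2, LSZ2 shLacZ replicate 2, LSZ4 shLacZ replicate 2, LSZ2 shSiva1 replicate 1 or LSZ4 shSiva1 replicate 2. Over those 9 settings its change ran from -0.76 to -0.69 and its adjusted p from 0.0511 to 0.196.

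Tested within 1 line, 0 of the 10 genes passed in LSZ2, where 0.939% of all genes did, and 0 passed in LSZ4, where 4.57% did. At an unadjusted p under 0.05 in limma there were 1 and 4 of the 10, beside 2348 and 5009 of all 22908 genes. The difference between the lines in the response to shSiva passed for 0 of the 10 genes and 0% of all genes, with 0 of the 10 and 526 of all 22908 genes at an unadjusted p under 0.05 in limma.

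**Figure D1:**
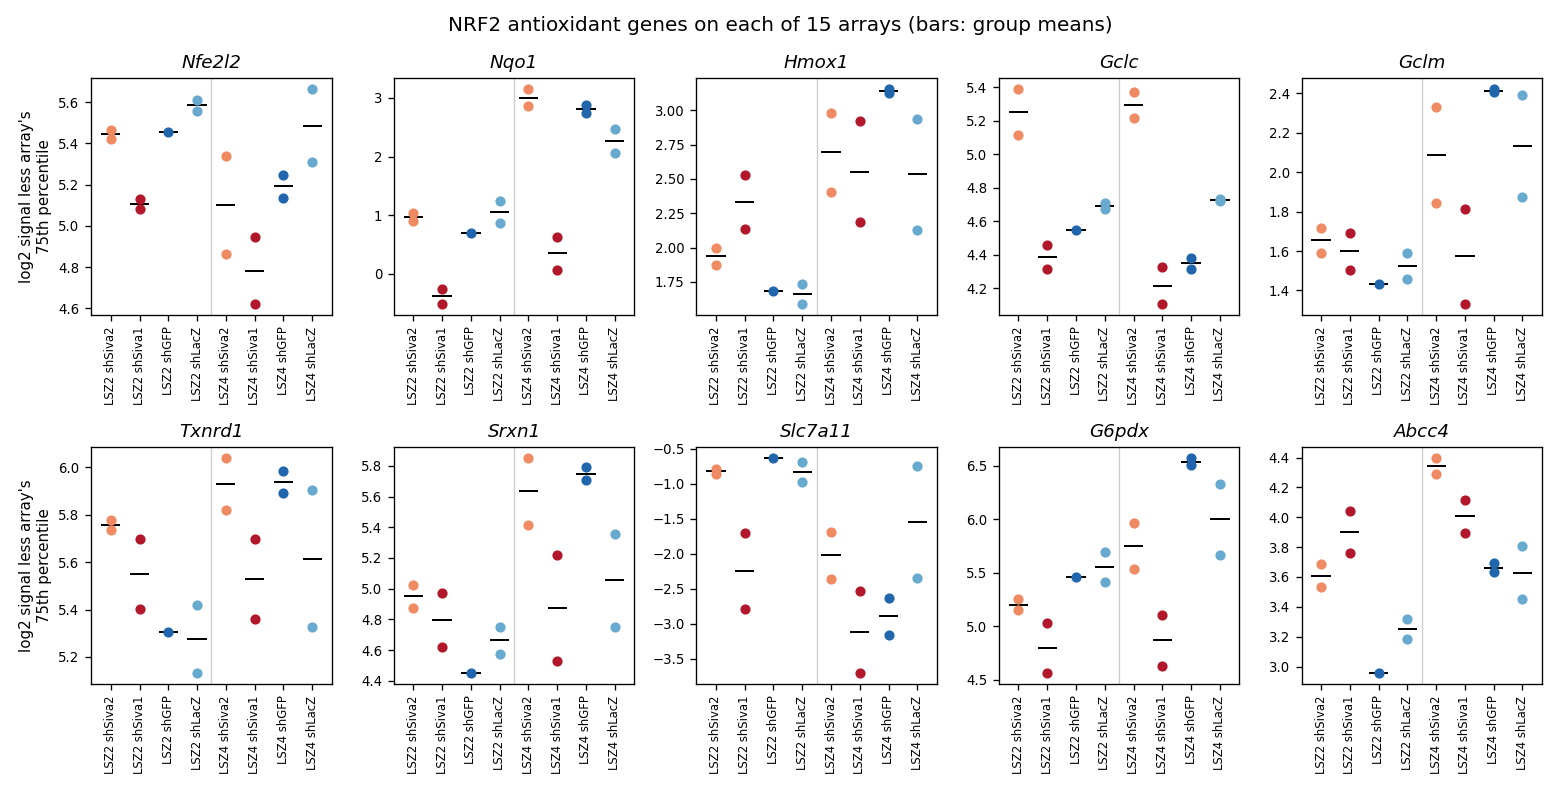
Scaled log2 signal (y axis) of each of the 10 genes on the 15 arrays, by line and hairpin (x axis, shSiva2 orange, shSiva1 dark red, shGFP dark blue, shLacZ light blue), with a bar at each group mean. Nqo1 is lowest with shSiva1 in both lines, Gclc is highest with shSiva2 in both lines, and Abcc4 lies above the controls of its line with either Siva hairpin.

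The pooled values combine hairpins that differed. With shSiva1, 5 of the 10 genes changed, 1 higher and 4 lower, against 25.9% of all genes, 10.2% higher and 15.7% lower. The median change with shSiva1 was -0.30 for the 10 genes and -0.19 for all genes, the second being -0.05 with quantile scaling. With shSiva2, 2 genes changed, both higher, against 12.2% of all genes, 5.99% higher and 6.25% lower. Set against each other, shSiva2 gave higher values than shSiva1 for Nqo1 and Gclc, 2 of 10 genes, where 19.5% of all genes differed, 10.1% higher and 9.43% lower. Without LSZ4 shLacZ replicate 1 the shares of all genes were 39.2% with shSiva1, 17.4% with shSiva2 and 24.5% between the hairpins. Abcc4 was called with both Siva hairpins over control.

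Nqo1 encodes a quinone reductase that is a standard readout of NRF2 activity. In LSZ2 it read 1.04 and 0.90 with shSiva2, -0.51 and -0.25 with shSiva1, and 0.69, 0.87 and 1.24 on control arrays. In LSZ4 it read 2.86 and 3.15 with shSiva2, 0.07 and 0.64 with shSiva1, and 2.74, 2.88, 2.06 and 2.46 on control arrays. In both lines the shSiva1 arrays lay below all others, whereas the shSiva2 arrays lay among the controls in LSZ2, and in LSZ4 1 lay among them and 1 above. The change of Nqo1 with shSiva2 over control was 0.24 (SE 0.23, adjusted p = 0.611), and with shSiva1 it was -1.76 (SE 0.23, adjusted p = 6.15e-05). shSiva2 over shSiva1 was 2.00 (SE 0.26, adjusted p = 5.54e-05), a fold of 4.01. This difference was 1.35 in LSZ2 and 2.65 in LSZ4, and whether it differed between the lines was not tested.

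Gclc encodes the catalytic subunit of glutamate-cysteine ligase, the rate-limiting enzyme of glutathione synthesis. It read 5.39 and 5.12 in LSZ2 and 5.22 and 5.37 in LSZ4 with shSiva2, and 4.31, 4.46, 4.32 and 4.11 with shSiva1. The 7 control arrays ran from 4.32 to 4.73 with a median of 4.67. Every shSiva2 array lay above every other array. Gclc rose with shSiva2 by 0.69 (SE 0.13, adjusted p = 0.00243), and with shSiva1 it read -0.29 (SE 0.13, adjusted p = 0.116). The difference between the hairpins was 0.97 (SE 0.15, adjusted p = 0.000192), 0.87 within LSZ2 and 1.08 within LSZ4.

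Gclm, the modifier subunit of the same ligase, passed with neither hairpin. Its values were -0.03 with shSiva2 (adjusted p = 0.952) and -0.32 with shSiva1 (adjusted p = 0.214), and the hairpins differed by 0.28 (95% confidence interval -0.16 to 0.73). Over both lines its arrays overlapped between the hairpins.

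Slc7a11, which imports the cystine from which glutathione is made, read -0.86 and -0.79 in LSZ2 and -1.69 and -2.36 in LSZ4 with shSiva2. With shSiva1 it read -1.71 and -2.79 in LSZ2 and -2.53 and -3.70 in LSZ4. Control arrays read -0.64, -0.70 and -0.97 in LSZ2 and -2.63, -3.17, -0.74 and -2.34 in LSZ4. In LSZ2 the shSiva1 arrays lay below all others, and in LSZ4 they overlapped the shGFP arrays. Slc7a11 read 0.09 with shSiva2 and fell by 1.17 with shSiva1 over control (SE 0.38, adjusted p = 0.0340), and the difference between hairpins, 1.26 (SE 0.43), narrowly missed the threshold (adjusted p = 0.0511). Without LSZ4 shLacZ replicate 1, the control array with the highest value in its line, that difference passed (1.26, adjusted p = 0.0117). It also passed without LSZ4 shGFP replicate 2 (adjusted p = 0.0302) or LSZ4 shSiva1 replicate 1 (1.54, adjusted p = 0.0262), and over all alternatives its adjusted p ran from 2.31e-05 to 0.236.

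G6pdx read 5.26, 5.15, 5.53 and 5.97 with shSiva2, a change of -0.44 over control (SE 0.20, adjusted p = 0.203). It fell by 1.08 with shSiva1 (SE 0.20, adjusted p = 0.00126), where its 4 arrays, 4.56, 5.03, 4.63 and 5.11, lay below all 7 controls. The hairpins differed by 0.64 (SE 0.23, adjusted p = 0.0621), which passed without LSZ4 shLacZ replicate 1 (adjusted p = 0.0334) or LSZ2 shSiva1 replicate 2 (0.81, adjusted p = 0.0233) and over all alternatives had an adjusted p from 0.000769 to 0.226. Nfe2l2 itself read -0.17 with shSiva2 (adjusted p = 0.524) and fell by 0.50 with shSiva1 (SE 0.14, adjusted p = 0.0157). Its 4 shSiva1 arrays, at 5.13, 5.08, 4.94 and 4.62, lay below every control array.

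Abcc4 was the 1 gene called with each hairpin, 0.57 with shSiva2 (SE 0.14, adjusted p = 0.0163) and 0.55 with shSiva1 (SE 0.14, adjusted p = 0.0117). The hairpins differed by 0.02, with a 95% confidence interval from -0.33 to 0.37. Txnrd1, which reduces thioredoxin, read 0.30 with shSiva2 and -0.01 with shSiva1. Srxn1, which repairs overoxidised peroxiredoxins, read 0.28 with shSiva2 and -0.18 with shSiva1. Hmox1, the haem oxygenase, read 0.04 with shSiva2 and 0.16 with shSiva1. None of these 3 passed with either hairpin, and over both lines their arrays overlapped the controls. In LSZ2 all 4 shSiva arrays of Hmox1 lay above the 3 control arrays, which did not recur in LSZ4. The second Hmox1 probe gave -0.07 with shSiva2 and 0.12 with shSiva1.

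**Figure D2:**
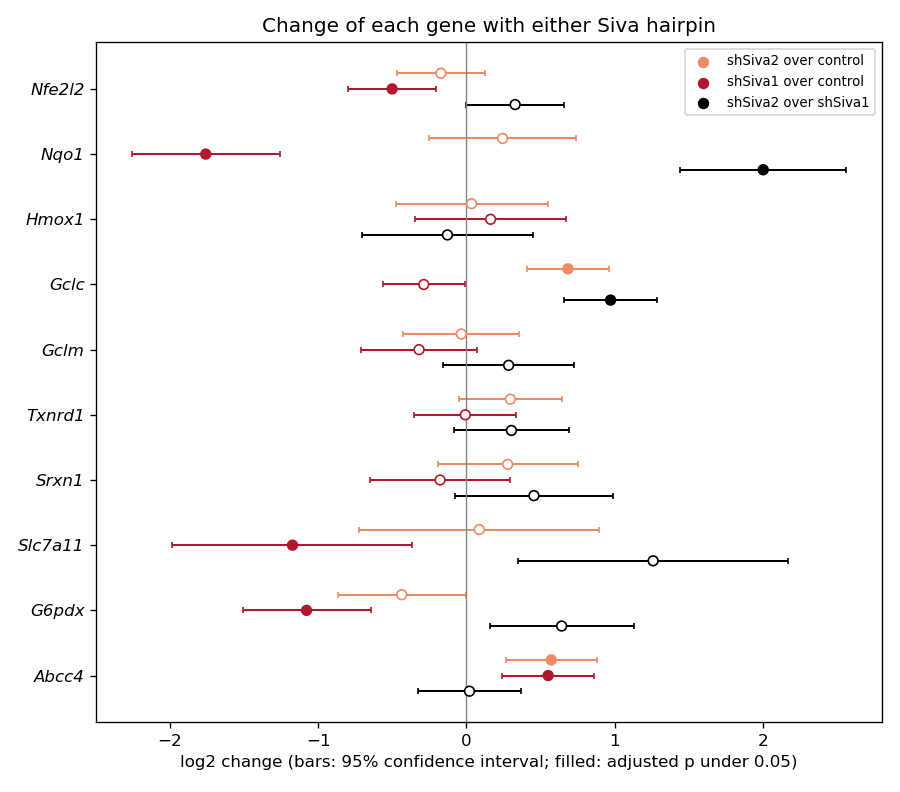
Log2 change (x axis) of each gene (y axis) for shSiva2 over control, shSiva1 over control and shSiva2 over shSiva1, with 95% confidence intervals and filled points where the adjusted p is under 0.05. Nqo1 reads 0.24 with shSiva2 and -1.76 with shSiva1, Gclc reads 0.69 with shSiva2 and -0.29 with shSiva1, and Abcc4 reads 0.57 with shSiva2 and 0.55 with shSiva1.

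The calls for Nqo1 and Gclc between the hairpins held under every alternative run, with changes from 1.76 to 2.19 for Nqo1 and from 0.78 to 1.09 for Gclc. Brightness ran from 499 to 901 on shSiva2 arrays and from 586 to 964 on shSiva1 arrays. With brightness as a term, 6 of the 10 genes differed between the hairpins, where 42.1% of all genes did. The shSiva1 call of Nfe2l2 was lost with quantile scaling (-0.25, adjusted p = 0.448), median scaling, 8 group means, the random block and without LSZ4 shSiva1 replicate 2 (-0.43, adjusted p = 0.0692), its adjusted p over all alternatives running from 0.000179 to 0.448. That of Slc7a11 was lost with median scaling, normexp (-0.55, adjusted p = 0.205), no filter, the random block, and without LSZ2 shGFP replicate 1, LSZ2 shLacZ replicate 1 or 2, LSZ2 shSiva1 replicate 2 or LSZ4 shSiva1 replicate 2 (-1.19 to -0.92, adjusted p up to 0.109). With 8 group means, Gclc lost its call with shSiva2 (0.70, adjusted p = 0.104). Abcc4 lost its call with shSiva2 without LSZ4 shSiva2 replicate 1 or 2 (0.54 and 0.50, adjusted p = 0.0689 and 0.0756), and with either hairpin under normexp and 8 group means, where it read 0.36 to 0.60.

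The rest of the pathway was read from 3 lists, drawn up with earlier results of these data known. Of 14 measured NRF2 regulators, 1 fell and 0 rose in the pooled comparison, 1 fell with shSiva1, 2 rose and 1 fell with shSiva2, and 1 rose and 1 fell for shSiva2 over shSiva1. The shares called were 7.14%, 7.14%, 21.4% and 14.3% in these comparisons, beside 9.97%, 25.9%, 12.2% and 19.5% of all genes. The regulator that fell in the pooled comparison was Keap1, the NRF2 inhibitor itself, at -0.64 (SE 0.19, adjusted p = 0.0411). It ran from 3.51 to 4.42 on shSiva arrays, with a median of 3.81, and from 4.10 to 5.30 on control arrays, with a median of 4.34. These ranges overlapped, and the call was lost without any of 12 of the 15 arrays, the change then running from -0.69 to -0.56 and its adjusted p from 0.0520 to 0.0864. The 3 that left the call in place were LSZ4 shLacZ replicate 1, LSZ2 shSiva1 replicate 2 and LSZ4 shSiva1 replicate 2.

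With shSiva2, Keap1 fell by 0.80 (SE 0.22, adjusted p = 0.0238). Sqstm1, the autophagy adaptor that binds KEAP1, rose by 0.99 (SE 0.22, adjusted p = 0.00665), and Bach1, a repressor that competes with NRF2 at its sites, rose by 0.94 (SE 0.25, adjusted p = 0.0224). With shSiva1 over control, Keap1 read -0.48 and Bach1 0.41, and for shSiva2 over shSiva1 they read -0.32 and 0.54. None of these values passed, so a difference between the hairpins was not shown for Keap1 or Bach1. Sqstm1 read 4.10, 4.07, 4.74 and 5.16 with shSiva2, and control arrays ran from 2.75 to 4.43, so that within each line shSiva2 lay above all controls. Without LSZ4 shSiva2 replicate 1 neither Keap1 (-0.72, adjusted p = 0.102) nor Bach1 (0.76, adjusted p = 0.117) passed, and leaving out LSZ2 shSiva2 replicate 1 or 2 also ended both calls (adjusted p from 0.0524 to 0.0626). Between the hairpins, Sqstm1 rose by 0.76 (adjusted p = 0.0407) and the small MAF gene Maff fell by 0.72 (adjusted p = 0.0421), the first not passing in 10 of 15 fits that left out an array (0.57 to 0.81, adjusted p up to 0.136).

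Of 35 measured further NRF2 targets, 10 rose and 2 fell for shSiva2 over shSiva1, where Nqo1 and Gclc also rose. These 12 were 34.3% of the list, beside 19.5% of all genes. With shSiva2 over control 6 rose and 2 fell, 22.9% of the list beside 12.2% of all genes. With shSiva1 over control 2 rose and 6 fell, also 22.9%, beside 25.9% of all genes. In the pooled comparison 1 rose, the aldehyde oxidase gene Aox1 at 0.92 (adjusted p = 0.0455). The median over the list for shSiva2 over shSiva1 was 0.35, beside 0.39 for the 10 genes and 0.14 for all genes. Aox1 lost its pooled call without any of 11 arrays (adjusted p up to 0.0926). Without LSZ4 shLacZ replicate 1, 13 of the 35 were called between the hairpins, and without any 1 array 10 to 15.

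The following 5 genes were picked for their size after their values were seen. Cbr3, a carbonyl reductase, read 4.65, 4.03, 5.52 and 6.47 with shSiva2, against 0.59, 1.15, -0.14 and 0.52 with shSiva1, and controls ran from 2.46 to 4.19. Within each line the shSiva2 arrays lay above all controls and the shSiva1 arrays below them. The difference between the hairpins was 4.64 (SE 0.43, adjusted p = 1.92e-06), made up of 2.05 with shSiva2 and -2.59 with shSiva1 over control. Aldh3a1, an aldehyde dehydrogenase, differed by 2.66 (SE 0.27, adjusted p = 4.77e-06), with both of its probes called. Blvrb, a biliverdin reductase, differed by 1.89 and Pir, a redox-sensitive nuclear protein, by 1.21. Akr1c13, an aldo-keto reductase, ran the other way and fell by 1.27. By the rule for named genes, the carbonyl reductase Cbr1 rose by 1.44, the glutathione peroxidase Gpx2 by 1.51 and Aox1 by 1.23. Whether probes of Cbr1, Cbr3 and Akr1c13 also bind transcripts of close relatives was not tested.

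Of 25 measured genes of the glutathione and thioredoxin systems, 1 rose and 4 fell for shSiva2 over shSiva1, 4 rose and 3 fell with shSiva1 over control, and 2 fell with shSiva2 over control. These were 20%, 28% and 8% of the list, beside 19.5%, 25.9% and 12.2% of all genes. In the pooled comparison 0 passed in limma, where 9.97% of all genes did. At an unadjusted p under 0.05 there were 5 of the list, beside 5832 of all 22908 genes. The median of this list for shSiva2 over shSiva1 was 0.06, and that of the regulators 0.34.

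Markers of lung lineage moved with the hairpins too. Of 5 measured, 3 fell with shSiva1 and 3 rose for shSiva2 over shSiva1 (Sftpb, Ager and Scgb1a1), while the summed scaled signal of the 5 ran from 197 to 516 with shSiva2, from 215 to 512 with shSiva1 and from 171 to 703 on control arrays. Among epithelial markers, 1 of 6 rose with each Siva hairpin over control, Epcam, and 1 rose for shSiva2 over shSiva1, Cdh1. Of 2 measured endothelial markers 1 fell with shSiva1. Among fibroblast markers, Col1a1 rose with shSiva1 and fell for shSiva2 over shSiva1, with a summed signal of the 3 measured fibroblast markers between 0.0850 and 0.251 on all 15 arrays. Of 5 measured leukocyte markers 0 passed in these comparisons, also at an unadjusted p under 0.05, with a sum from 10.1 to 15.1. The part of such cells in the results on the 10 genes was not tested. In bulk RNA, fewer cells of a type and less RNA per cell cannot be told apart.

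**Figure D3:**
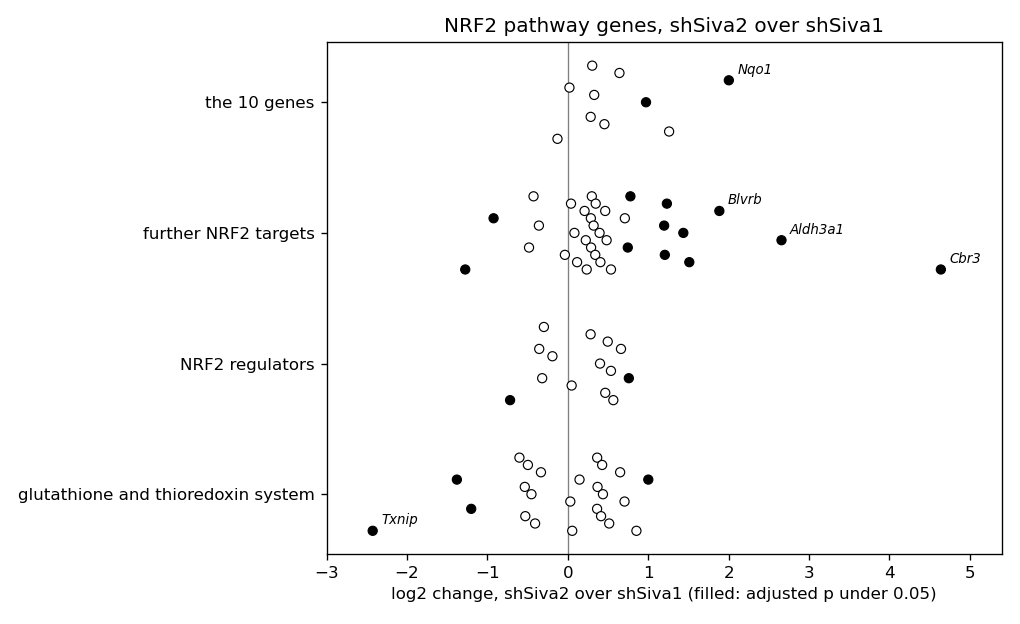
Log2 change for shSiva2 over shSiva1 (x axis) of the 10 genes and of the genes of 3 pathway lists that were well above background on all 15 arrays (rows, points spread vertically for legibility), filled where the adjusted p is under 0.05. Nqo1 at 2.00, Aldh3a1 at 2.66 and Cbr3 at 4.64 lie farthest to the right in their rows.

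Each control hairpin was also used alone. Against shGFP, 3 of the 10 genes were called, where 20.5% of all genes were: G6pdx fell by 0.94, Nqo1 by 0.87, and Abcc4 rose by 0.61 (adjusted p = 0.00889, 0.0302 and 0.0167). Against shLacZ, 2 were called, where 11.2% of all genes were: Nfe2l2 fell by 0.43 (adjusted p = 0.0456) and Abcc4 rose by 0.52 (adjusted p = 0.0275). shGFP over shLacZ itself passed for 0 of the 10 genes, and for 1 gene of all, 0.00437%. At an unadjusted p under 0.05 in limma there were 0 of the 10, beside 2321 of all 22908 genes. The shGFP and shLacZ comparisons share the 8 shSiva arrays, and a difference between them was not shown. Over shGFP, 0 of the 10 were called without LSZ4 shGFP replicate 1 or 2 (adjusted p from 0.0525 to 0.146), and Abcc4 was also lost without LSZ2 shGFP replicate 1 (0.50, adjusted p = 0.0515). The Abcc4 call over shLacZ was lost without LSZ4 shLacZ replicate 1 (0.45, adjusted p = 0.0780), LSZ2 shLacZ replicate 1 or 2, LSZ2 shSiva1 replicate 1 or LSZ4 shSiva2 replicate 1. The Nfe2l2 call over shLacZ was lost without any of 12 of the 15 arrays (-0.46 to -0.33, adjusted p up to 0.126), the exceptions being LSZ2 shGFP replicate 1, LSZ4 shSiva1 replicate 1 and LSZ4 shSiva2 replicate 1.

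Between the lines, 5 of the 10 genes differed, 1 higher and 4 lower in LSZ2 than in LSZ4, against 21.7% of all genes, 7.12% higher and 14.6% lower. Higher genes were 32.9% of all calls, and 45.5% with quantile scaling. Lower in LSZ2 were Nqo1 (-1.48, SE 0.42, adjusted p = 0.0299), Hmox1 (-0.80, SE 0.20, adjusted p = 0.0180), Gclm (-0.47, SE 0.16, adjusted p = 0.0495) and Abcc4 (-0.45, SE 0.12, adjusted p = 0.0261). Higher in LSZ2 was Slc7a11 (1.23, SE 0.39, adjusted p = 0.0402). The median of the 10 genes was -0.46, beside -0.23 for all genes.

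On control arrays the lines were apart for several of these genes. Hmox1 read 1.69, 1.59 and 1.73 in LSZ2 and 3.15, 3.13, 2.13 and 2.94 in LSZ4. Gclm read 1.43, 1.46 and 1.59 in LSZ2 and 2.41, 2.42, 1.87 and 2.39 in LSZ4. In both, every LSZ4 control array lay above every LSZ2 control array, and LSZ4 shLacZ replicate 1 was the lowest of its line. On shSiva arrays the lines overlapped for both genes. The second Hmox1 probe gave a line difference of -0.76 (adjusted p = 0.0102).

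Most other genes of the pathway did not pass between the lines, the shares called being 28.6% of targets, 28.6% of regulators and 32.0% of glutathione and thioredoxin genes, beside 21.7% of all genes. At an unadjusted p under 0.05 in limma there were 19 of 35 targets, 14 of 14 regulators and 13 of 25 glutathione and thioredoxin genes. Of all 22908 genes, 10729 reached that level. Of 35 further targets 1 was higher and 9 were lower in LSZ2, among them Gpx2 at 1.03 and Cbr1 at -1.40, and the pentose phosphate enzyme Tkt at -0.87. Of 14 regulators 0 were higher and 4 lower, and of 25 glutathione and thioredoxin genes 0 were higher and 8 lower. Without LSZ2 shGFP replicate 1, 2 targets, 0 regulators and 3 glutathione and thioredoxin genes were called, and with brightness as a term 0, 0 and 4. Without LSZ4 shLacZ replicate 1 the counts were 19, 14 and 14, where 52.5% of all genes were called. Some markers differed as well: 1 of 6 epithelial markers was higher and 2 lower in LSZ2, and 1 of 5 lung, 2 of 5 leukocyte, 1 of 2 endothelial and 1 of 3 fibroblast markers were lower, their part not being tested.

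**Figure D4:**
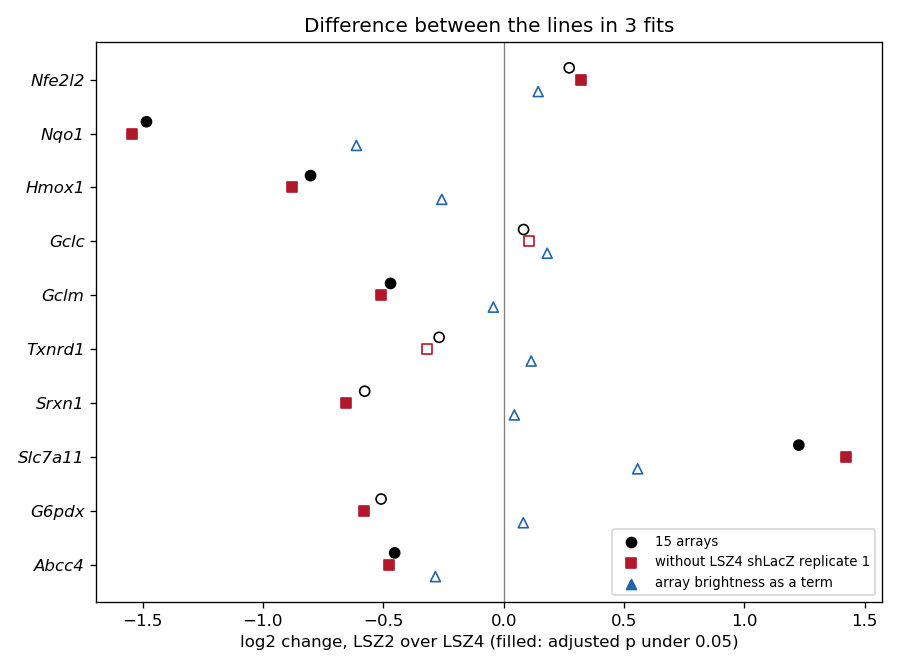
Log2 change for LSZ2 over LSZ4 (x axis) of each gene (y axis) with all 15 arrays, without LSZ4 shLacZ replicate 1 and with array brightness as a term, filled where the adjusted p is under 0.05. Without that array 8 of 10 genes are called, where 52.5% of all genes are, and with brightness as a term 0 are called, where 4.24% of all genes are, and most values move towards 0.

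The number of the 10 genes called between the lines moved with the share of all genes called. It was 8 without LSZ4 shLacZ replicate 1 or LSZ4 shSiva1 replicate 1, where 52.5% and 50.1% of all genes were called, and 0 without the LSZ2 control arrays shGFP replicate 1 or shLacZ replicate 1, where 5.87% and 5.76% were. Leaving out any other single array gave 1 to 6. The Hmox1 call was lost without either of these LSZ2 control arrays (adjusted p = 0.0508 and 0.0547), while left-out arrays that ended the call numbered 12 of 15 for Gclm, 11 for Slc7a11, 8 for Nqo1 and 5 for Abcc4. With 8 group means, with the random block or with brightness as a term, 0 were called, beside 1.97%, 4.59% and 4.24% of all genes. Brightness also differed between replicates, in LSZ4 at 964 and 586 for shSiva1, 630 and 499 for shSiva2, 428 and 457 for shGFP and 895 and 578 for shLacZ. The brighter array of a pair read lower for Nqo1, Hmox1 and Srxn1 in all 4 LSZ4 pairs and all 3 LSZ2 pairs. Gclc, Gclm, Txnrd1, G6pdx and Abcc4 read lower on it in 3 LSZ4 pairs and all 3 LSZ2 pairs. Nfe2l2 did so in 1 LSZ4 pair and 2 LSZ2 pairs, and Slc7a11 in 1 LSZ4 pair and 0 LSZ2 pairs. For Gclm, Txnrd1, G6pdx and Abcc4 the exception was the shGFP pair. The brighter array was replicate 1 in 3 of the 4 LSZ4 pairs and 2 of the 3 LSZ2 pairs, so brightness and replicate number largely coincide, and the part of either was not tested. With brightness as a term the line differences read -0.61 for Nqo1, 0.56 for Slc7a11, -0.26 for Hmox1, -0.28 for Abcc4 and -0.04 for Gclm.

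Across the 8 group means the genes spanned between 0.66 (Txnrd1) and 3.39 (Nqo1) on the log2 scale. For the 7 genes that spanned at least 1, the 3 most similar profiles were sought among 13703 genes with an ordinary symbol, by the root mean square difference of the 8 centred means. For Nqo1 these were Plin4 (0.27), Cbr1 (0.28) and H2ac8 (0.29). Nqo1, Plin4, Cbr1 and H2ac8 all had their lowest mean with shSiva1 in LSZ2, at -0.38, 0.86, 2.73 and -3.05. All of them had their highest mean with shSiva2 in LSZ4. Closest were Sap18 for Gclc (0.10), Polr3d for Hmox1 (0.07), Med11 for Srxn1 (0.05), Acsm3 for Slc7a11 (0.27), Cherp for G6pdx (0.07) and Tmem260 for Abcc4 (0.10). None of the 10 genes was among the 3 closest of another.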

How the data were processed

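Total RNA (200 ng) was labelled with Cy3 and hybridised to Agilent 1-colour mouse arrays, 1 per sample, per the labels. The authors deposited scanner files of spot intensity values, made per the file headers with Feature Extraction 10.7.3.1, and a value table in log2. Against the scanner files, the deposited log2 values are the scaled signal with each probe's median over the arrays set to 0, and they served as an alternative.

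Flagged spots were left out, spots of a probe averaged, and log2 processed signals reduced by the array's 75th percentile. A probe was kept if 4 or more arrays showed it well above background and no more than 3 lacked it (32188 of 55681). The brightest probe stood for a gene. Symbols of 26582 probes were updated through RefSeq accessions. limma 3.58.1 in R 4.3.3 (with the package data.table, 1.17.8) fitted all 15 arrays, with line and arm, line-by-arm means, line and 3 levels (control, shSiva1, shSiva2) or line and 4 hairpins as terms. P-values were adjusted by Benjamini-Hochberg over 22908 genes, with a threshold of 0.05. The fits were tested on simulated data. Precision is limited by how many arrays there are, and 0 spots were saturated.

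The members, lists, tests and alternatives were chosen with earlier results of these data known. Named were the 10 genes, the main regulators, further targets that passed in the pooled or line comparison (at most 6 per list, by smallest p), and the 3 closest profiles per gene. Replicate numbers were not taken to pair samples in the main fits, because not every pair of groups had correlations of deviations over 0.1. Of 21 pairs 14 did, and a fit with replicate as a block was an alternative. Alternatives covered scaling, background, filter, probe, replication, each array left out and, added after seeing the data, array brightness.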

Additional observations from a re-analysis of the deposited data

Results flagged for a closer look

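The difference between the Siva hairpins was itself tested and passed for Nqo1, at 2.00 for shSiva2 over shSiva1, and for Gclc, at 0.97. In LSZ4 controls, shLacZ replicate 1 lay far below the other 3 arrays for Gclm, at 1.87 against 2.39 to 2.42, and for Txnrd1, at 5.33 against 5.89 to 5.98. Both exceeded the critical value of Dixon's test for outliers, as the gap to the nearest array was 0.942 of the range for Gclm and 0.859 for Txnrd1. These were 2 of 30 tests, where chance gives about 1 in 20 independent tests. Both flags came from the same array, so they are not independent. The LSZ4 controls also combine shGFP and shLacZ, which differ in vector and selection, so these arrays are not plain replicates.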

How the results depend on the processing

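The calls of Nqo1 and Gclc for shSiva2 over shSiva1, and of Nqo1 and G6pdx with shSiva1, passed under all 27 alternatives. Of the 10 genes, the pooled comparison called 3 with quantile scaling (Txnrd1 added) or brightness (Nfe2l2 added), beside 13.8% and 29.2% of all genes. It called 1 with normexp, no filter or a random block of line and hairpin groups, beside 3.66%, 4.85% and 4.18%. It called 0 with 8 group means, beside 1.28%, and 1 to 2 without any 1 array, beside 6.74% to 16.5%. Within LSZ2 it called 1 with quantile scaling and 2 with brightness as a term. Within LSZ4 it called 2 with either of these, 1 with the replicate block and 0 to 2 without any 1 array (2 without shLacZ replicate 1, 1 without shSiva2 replicate 2).

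With shSiva1, 3 were called under median scaling, normexp, 8 group means or the random block, beside 23.6%, 16.8%, 11.8% and 16.8% of all genes. Without any 1 array 3 to 5 were called (3 without LSZ4 shSiva1 replicate 2), beside 17.5% to 39.2%. With shSiva2, 5 were called under quantile scaling or brightness, beside 18.3% and 38.2% of all genes. There were 1 under normexp and 0 with 8 group means, beside 5.28% and 5.17%, and 1 to 2 without any 1 array, beside 7.8% to 17.4%. Between the hairpins, 4 were called with the replicate block and 6 with brightness, beside 23.1% and 42.1% of all genes. Without any 1 array 2 to 4 were called (4 without LSZ4 shLacZ replicate 1), beside 15.2% to 24.5%. Over shGFP, 5 were called with quantile scaling or brightness, 0 with 8 group means and 0 to 4 without any 1 array. Over shLacZ, 4 were called with quantile scaling, 1 with median scaling, the authors' table or the random block, 0 with normexp, no filter or 8 group means, 5 with the replicate block or brightness and 0 to 3 without any 1 array (0 without LSZ2 shLacZ replicate 1 or 2 or LSZ2 shSiva1 replicate 1). Between the lines, 2 were called with normexp, beside 9.0% of all genes, and 0 with 8 group means, the random block or brightness, beside 1.97%, 4.59% and 4.24%. Without any 1 array 0 to 8 were called, beside 5.76% to 52.5%. Shares of all genes under the alternatives were not counted within 1 line, over shGFP or over shLacZ.

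Uncalled values near 0 changed sign. With shSiva1, Txnrd1 read 0.26 with quantile scaling, 0.0769 with median scaling, 0.00435 with the authors' table, 0.00605 with 8 group means and 0.11 with brightness, and Srxn1 read 0.0926 with quantile scaling and 0.0230 with brightness. With shSiva2, Hmox1 read -0.0168 as the mean of its probes and -0.0323 with brightness, and Gclm read 0.0144 with quantile and 0.000425 with median scaling. Abcc4 for shSiva2 over shSiva1 read -0.15 with quantile scaling, -0.0285 with median scaling and -0.0610 with brightness. Pooled Srxn1 read -0.0210 with normexp. For LSZ2 over LSZ4, Txnrd1 read 0.14 with quantile scaling and 0.11 with brightness, Srxn1 0.0444 and G6pdx 0.0814 with brightness. Without any 1 array, pooled Srxn1 ran from -0.0410 to 0.19. With shSiva1, Hmox1 ran from -0.00801 to 0.41, Txnrd1 from -0.11 to 0.11 and Srxn1 from -0.33 to 0.0493. With shSiva2, Hmox1 ran from -0.0670 to 0.15, Gclm from -0.12 to 0.0660 and Slc7a11 from -0.0869 to 0.32. Between the hairpins, Hmox1 ran from -0.37 to 0.0499 and Abcc4 from -0.0843 to 0.14, and between the lines Gclc ran from -0.0241 to 0.19. The cause of these changes was not tested.

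Replicate numbers were checked for pairing over 21 pairs of groups, with correlations of deviations from -0.21 to 0.73 and a median of 0.23. They were over 0.1 in 14 pairs. With replicate as a block, 32.5% of all genes were called with shSiva1, beside 25.9% in the main fit. What arrays of the same replicate number share was not tested. The 10 genes were well above background on all 15 arrays, but Slc7a11 was dim in LSZ4, with processed signals from 45.0 to 534. Its change with shSiva1 was -1.17 in the main fit and -0.55 with normexp background correction. The part of background in its values was not tested. Vector, and slide as read from the names of the scanner files, remain inseparable from the Siva hairpins in every comparison with controls.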
